A study of Rattus norvegicus with 10 samples.

Results

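The Slc1 family holds the sodium-coupled transporters that take up glutamate and the exchangers of small neutral amino acids. Its members *Slc1a1*, *Slc1a2*, *Slc1a3*, *Slc1a4*, *Slc1a5* and *Slc1a6* were chosen by gene name, and 5 of these 6 genes had a row among the 12828 genes of the table that was analysed. *Slc1a5*, the glutamine exchanger ASCT2, was looked for by name and not found. *Slc1a6* was also among the genes that ranked high in the authors' own comparison of the diets, so the choice of the family was not blind to that comparison. RNA was taken from the arcuate nucleus (ARC), a nutrient-sensing nucleus of the hypothalamus, of 10 Wistar dams at parturition. Of these dams, 5 were fed a 5X-FA diet (folic acid at 5 times the recommended level) during pregnancy and 5 a 5X-MTHF diet (methylfolate, the reduced form of the vitamin, as an equimolar amount). The ARC was macrodissected by hand from frozen brain along approximate coordinates, so that neighbouring tissue may enter a sample.

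Glutamate is the main excitatory transmitter of the brain, and no enzyme in the synaptic cleft breaks it down. It is cleared by transporters that carry it into cells with sodium and protons in exchange for potassium. Astrocytes do most of this work, convert glutamate to glutamine and return glutamine to neurons. In the same family the ASCT exchangers swap alanine, serine, cysteine or glutamine across the membrane.

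The diets were not compared here for these genes, and the authors' own comparison of the diets was not used. The values per library stand in 10 columns headed by running numbers that match no label of a dam or diet, and they were used in no step. What follows describes the level of each gene over all libraries together, taken from the authors' average log2 CPM. CPM sets the reads of a gene against the reads counted over genes in its library, here on a log2 scale. No spread between dams and no test goes with these averages, and how deeply each library was sequenced cannot be read from them. A CPM counts reads per gene and not per length, and no transcript lengths were at hand. The values therefore rank genes by the reads they drew and not by molecules of RNA. In bulk tissue, fewer cells of a type and less RNA per cell cannot be told apart.

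The start regions found for 4 members are shown first, because they differed in the CpG content of the bases before the start site. CpG is the dinucleotide that DNA methylation acts on in vertebrates. They are RefSeq regions on build GRCr8 of 4 of the 6 members, namely *Slc1a2*, *Slc1a3*, *Slc1a4* and *Slc1a6*, so nothing is said of the family as a set. The 250 bases before each start are given 5′ to 3′ on the strand of the gene, with every CpG in capitals. The 4 sequences below were picked by CpG count and by reads. They are the regions with the most and the fewest CpG, and a region each for the members with the most and the fewest reads. The first *Slc1a2* region lies at chr3:109459859-109460108 on the plus strand, and the second at chr3:109507697-109507946 on the same strand. The *Slc1a3* region lies at chr2:59557809-59558058 on the minus strand. The *Slc1a6* region lies at chr7:11521008-11521257 on the minus strand.
Slc1a2, first start: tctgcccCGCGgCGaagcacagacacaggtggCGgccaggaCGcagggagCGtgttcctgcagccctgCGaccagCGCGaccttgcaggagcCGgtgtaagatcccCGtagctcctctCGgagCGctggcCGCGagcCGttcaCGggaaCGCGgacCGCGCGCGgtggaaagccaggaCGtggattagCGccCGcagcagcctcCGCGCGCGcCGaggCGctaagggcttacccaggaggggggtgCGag
Slc1a2, second start: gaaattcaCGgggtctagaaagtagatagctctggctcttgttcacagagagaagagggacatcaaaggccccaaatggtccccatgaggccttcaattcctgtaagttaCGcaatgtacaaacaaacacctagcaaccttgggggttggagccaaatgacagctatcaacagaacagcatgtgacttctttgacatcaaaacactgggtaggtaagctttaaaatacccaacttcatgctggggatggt
Slc1a3: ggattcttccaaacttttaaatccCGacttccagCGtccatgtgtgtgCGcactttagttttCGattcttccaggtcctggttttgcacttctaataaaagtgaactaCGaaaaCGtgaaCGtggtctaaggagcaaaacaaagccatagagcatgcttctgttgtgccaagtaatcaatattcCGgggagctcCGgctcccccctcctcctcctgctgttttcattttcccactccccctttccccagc
Slc1a6: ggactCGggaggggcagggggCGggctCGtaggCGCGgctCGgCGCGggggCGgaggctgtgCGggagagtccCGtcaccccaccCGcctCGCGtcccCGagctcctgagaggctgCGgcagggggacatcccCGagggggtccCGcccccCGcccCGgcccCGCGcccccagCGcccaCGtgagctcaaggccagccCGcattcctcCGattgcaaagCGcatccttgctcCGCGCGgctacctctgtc

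The region before the first *Slc1a2* start held 33 CpG and was 71.2% G or C. Only 3.60% of the 33469 rat start regions held as many CpG. Before the second start of the same gene there were 2 CpG and 45.6% G or C, and 81.9% of all regions held at least that many. The *Slc1a6* region held 30 CpG at 76.4% G or C, a CpG count that 5.35% of all regions reached. For *Slc1a3* the printed region held 9 CpG at 48.0% G or C. RefSeq lists 3 starts for that gene within 21 bases of each other, and the regions before the other two overlap the printed one and held 10 CpG each. The *Slc1a4* region, at chr14:98761563-98761812 on the minus strand, held 14 CpG at 58.8% G or C. The median over all regions was 5 CpG and 51.2% G or C. *Slc1a3*, the member with the most reads, had fewer CpG than *Slc1a6*, the one with the fewest reads. A relation between CpG content and reads was not tested, and which *Slc1a2* start was in use in these samples is not known.

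**Figure D1:**
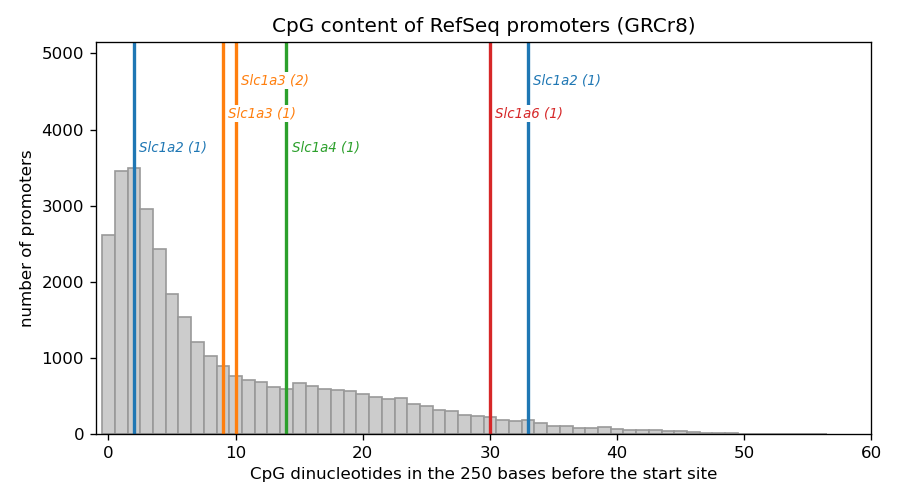
Histogram of the number of CpG dinucleotides in the 250 bases before the start site (x axis) over all 33469 RefSeq start regions on GRCr8 (y axis, number of regions). Vertical lines mark the regions of 4 members, with the number of start sites at that count in brackets; *Slc1a2* appears at 2 and at 33 CpG, and *Slc1a6* at 30.

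A few short motifs were looked for in these regions on both strands. TATAAA, the core of the TATA box, was found in none of the 7 member regions and in 12.9% of all regions. The GC box GGGCGG was found before *Slc1a6* alone among the members and in 30.5% of all regions. The E-box CACGTG was found before *Slc1a4* and *Slc1a6*, against 5.59% of all regions. CCAAT was found before *Slc1a4* and in 34.0% of all regions. GGGCGG overlaps with CpG, and so does CACGTG, since both contain that dinucleotide. These matches describe letters and were not tested for binding.

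Among the glutamate transporters, the astrocytic members drew the most reads. *Slc1a3* encodes GLAST, the glutamate-aspartate transporter of astrocytes and radial glia (ENSRNOG00000016163). Its gene spans 74.5 kb of chromosome 2 from 57860834 to 57935363 in Rnor_6.0. Its average level was 9.73 log2 CPM, or 849 CPM, which was rank 96 of the 12828 genes. It had the highest level of all 230 solute carrier genes in the table. *Slc1a2* encodes GLT-1, the carrier of most glutamate uptake in the forebrain (ENSRNOG00000005479). It lies on chromosome 3 from 92640752 to 92665644 in Rnor_6.0, and this gene model spans only 24.9 kb. Its average level was 8.08 log2 CPM, or 272 CPM, at rank 541 of all genes and rank 12 of the solute carriers. *Slc1a3* thus drew 3.13 times as many reads as *Slc1a2*, and whether this exceeds the spread between dams could not be examined. Together they made up 88.0% of the CPM of the 5 members. How many *Slc1a2* reads fell outside its short gene model was not tested, which limits both this ratio and this share.

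*Slc1a1* encodes EAAC1, the glutamate and cysteine transporter of neurons (ENSRNOG00000014816). It lies on chromosome 1 from 246954980 to 247037056 in Rnor_6.0 and spans 82.1 kb. Its average level was 6.53 log2 CPM, or 92.4 CPM, and 80.8% of all genes had a level at or below it. *Slc1a2* drew 2.94 times as many reads, with the same limit from its short gene model. *Slc1a6* encodes EAAT4, best known from cerebellar Purkinje cells, where it also conducts chloride (ENSRNOG00000007509). It lies on chromosome 7 from 13730253 to 13751271 in Rnor_6.0. Its average level was 2.83 log2 CPM, or 7.12 CPM, and 14.1% of all genes had a level at or below it. The authors had filtered the rows, so genes left out by that filter do not enter this percentile or the ranks. This was the lowest level of the 5 members. *Slc1a1* drew 13.0 times as many reads, and *Slc1a3* drew 119 times as many. *Slc1a6* was rank 215 of the 230 solute carriers and made up 0.559% of the CPM of the members.

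Of the neutral amino acid exchangers, only *Slc1a4* was measured here. It encodes ASCT1, which exchanges serine and alanine (ENSRNOG00000005248), and lies on chromosome 14 from 104581190 to 104612597 in Rnor_6.0. Its average level was 5.75 log2 CPM, or 53.7 CPM, at percentile 66.7 of all genes and rank 83 of the solute carriers. *Slc1a1* had 1.72 times as many reads, the smallest step between neighbours in the order of the members. The largest step, 7.54 times, lay between *Slc1a4* and *Slc1a6*.

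By reads, the order of the members was *Slc1a3*, *Slc1a2*, *Slc1a1*, *Slc1a4* and *Slc1a6*. Their median was 6.53 log2 CPM, against 4.94 over all genes and 5.11 over the solute carriers. Above the median of all genes lay 4 of the 5, *Slc1a6* being the exception. In all, the 5 genes took 1274 CPM, or 0.127% of the summed CPM of the table.

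**Figure D2:**
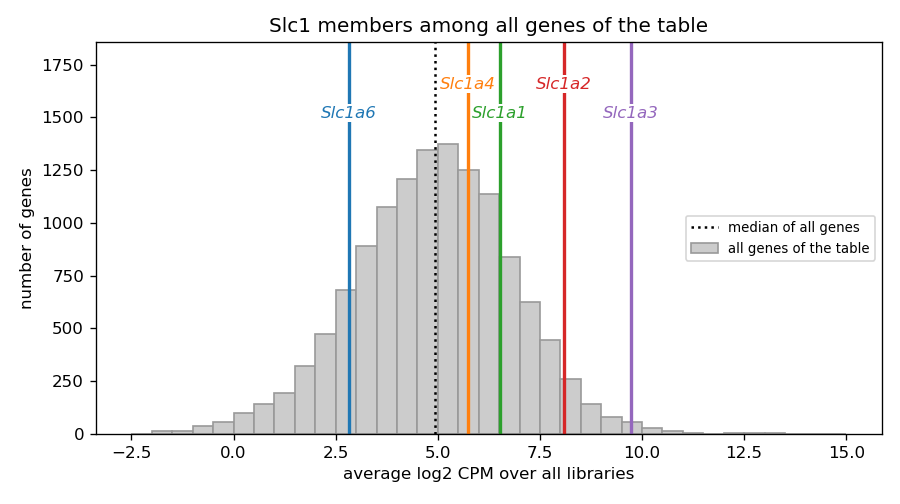
Histogram of the average log2 CPM over all libraries (x axis) for the 12828 genes of the table (y axis, number of genes), with a line for each of the 5 Slc1 members and a dotted line at the median of all genes. *Slc1a3* at 9.73 stands in the right tail and *Slc1a6* at 2.83 to the left of the median of 4.94.

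The 5 members lie on 5 chromosomes, and no other row of the table overlaps any of them. The nearest row to *Slc1a1* was *Spata6l* at 9.59 kb, with 2.37 log2 CPM. The nearest to *Slc1a2* was *Cd44*, a hyaluronan receptor, at 30.7 kb and 4.40 log2 CPM. For *Slc1a4* it was *Cep68*, a centrosome gene, at 57.9 kb and 4.74 log2 CPM. The nearest row to *Slc1a3* was 183 kb away, and the nearest to *Slc1a6*, *Syde1*, was 286 kb away with 3.19 log2 CPM. These neighbours were chosen by distance.

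Glutamate taken up by astrocytes enters the glutamate-glutamine cycle. Of 15 genes listed for this cycle and for vesicular release, 14 were found, and 13 of them lay above the median of all genes. Their median was 7.65 log2 CPM. The most reads went to *Glul*, the glutamine synthetase of astrocytes, at 10.76 log2 CPM. *Glud1*, the mitochondrial glutamate dehydrogenase, had 9.21 log2 CPM. Only *Glul* and none of the other 13 genes drew more reads than *Slc1a3*.

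Of 10 genes for proteins that bind glutamate transporters or keep up the ion gradients they run on, 8 were found, all above the median of all genes. *Atp1b2*, a beta subunit of the sodium pump, had 9.69 log2 CPM, next to the 9.73 of *Slc1a3*. The median of this list was 7.99 log2 CPM.

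Neutral amino acid transport and serine synthesis stood lower. Of 15 listed genes 13 were found, 10 of them above the median of all genes, with a list median of 5.90 log2 CPM. The highest were *Slc6a17*, a vesicular transporter of neutral amino acids, at 8.48, *Psat1* of the serine pathway at 7.55, and *Slc6a15*, a neuronal transporter of branched-chain amino acids, at 6.45 log2 CPM. *Slc1a4* at 5.75 log2 CPM lay close to this median.

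The cell types that carry these transporters were checked by marker lists. All 8 astrocyte markers were found, from 5.00 to 10.33 log2 CPM, with *S100b*, *Aqp4* and *Gfap* the highest at 10.33, 10.22 and 9.62. *Slc1a3* lay between *Gfap* and *Aqp4*. All 7 neuron markers were found, from 6.14 to 11.20 log2 CPM, and all 8 oligodendrocyte markers, from 5.62 to 12.59. Markers of microglia had a median of 4.18 log2 CPM over 5 of 6 genes, and those of endothelium 5.31 over 4 of 5 genes. Of the 6 Purkinje cell markers 4 were found, with *Itpr1* at 8.09 and *Calb1* at 7.57 log2 CPM, genes that other neurons also use. The narrower Purkinje markers *Pcp2* and *Car8* were looked for by name and not found among the filtered genes.

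The label of the tissue was checked in the same way. Of 8 ARC markers 7 were found, with *Cartpt* at 6.02, *Th* at 5.20 and *Pomc* at 4.67 log2 CPM. The marker not found was *Npy*. *Agrp*, *Ghrh* and *Kiss1*, which mark ARC neurons, had 1.42, 1.02 and 0.08 log2 CPM; they were picked with their values known. The median over the ARC list was 4.34 log2 CPM, and 2 of the 7 genes lay above the median of all genes. Markers of the striatum, a region outside the hypothalamus, were all found, from 4.26 to 7.07 log2 CPM, with a median of 5.19. *Ppp1r1b* and *Rgs9* had 7.07 and 5.37, and 4 of the 6 genes lay above the median of all genes. The ARC and striatal lists hold unlike genes, so their medians do not compare the amounts of tissue from each region. Of the cortical and hippocampal markers 4 of 6 were found, with *Slc17a7* at 7.17 log2 CPM and the others at 3.34 or lower. Of the tanycyte markers, glia of the third ventricle that also carry GLAST, 4 of 6 were found, with *Vim* at 7.32 and *Rax* at 0.08 log2 CPM. The part of cells from other regions in the levels of the Slc1 genes was not tested.

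**Figure D3:**
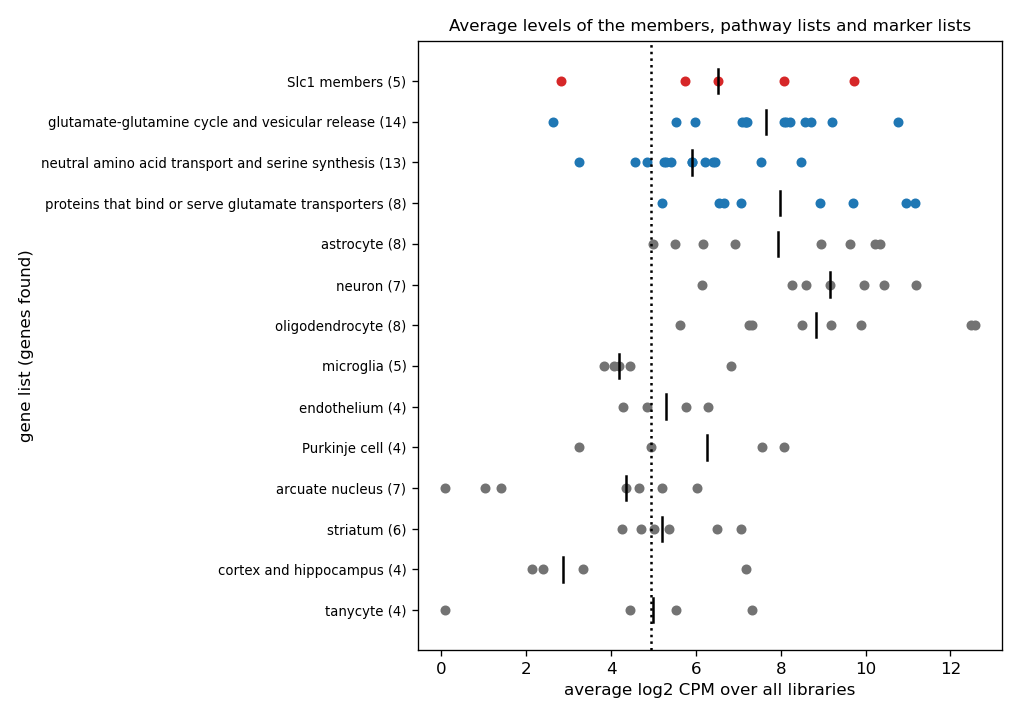
Average log2 CPM over all libraries (x axis) of each gene found, by list (y axis, number of genes found in brackets): the 5 Slc1 members in red, pathway lists in blue and marker lists in grey. Black ticks are list medians and the dotted line is the median of all genes, 4.94; the astrocyte markers span 5.00 to 10.33 and the members 2.83 to 9.73.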

How the data were processed

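Per the methods of the study, poly-A RNA of the ARC was sequenced as paired reads, trimmed with Trim Galore, aligned by STAR to Rnor_6.0 with Ensembl gene models and counted with HTSeq. The submitters' processing notes give Trim Galore 0.5.0 and STAR 2.6.0c. The authors deposited 1 table of 12828 genes. Its average log2 CPM per gene was computed by the authors over all libraries, and it is the only measurement used here. The rows were filtered by the authors. A further 10 per-sample columns carry names that fit no label, so they entered no step. Another 4 columns hold the authors' own comparison of the diets (fold change, F statistic, p-value and FDR) and were not used. The planned test of the diets was therefore not run.

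Here the averages were turned into CPM as powers of 2. A percentile is the share of genes at or below a level, and its calculation was tested on simulated data. Members were matched by gene name, as were 3 pathway lists and 10 marker lists. Named genes are the members, the 3 highest of a list (some are not reported here), and others marked as chosen after their values were seen. Members and lists were chosen with earlier results of these data known. RefSeq start regions (GRCr8) were matched by symbol. CpG and motifs were counted in the 250 bases before each start, and the 50 bases after it were left out. Python 3.11.15, pandas 2.3.3, numpy 2.4.6, matplotlib 3.10.9 and scipy 1.17.1 were used.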

Additional observations from a re-analysis of the deposited data

How the results depend on the processing

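The place of a gene depended on which genes were ranked. Over protein-coding genes alone (12383) or over the 12462 genes at 1 log2 CPM or more, 18 percentiles were recomputed. The largest move was 2.52 percentage points. Of the 18, 13 stayed within the exact 95% binomial interval of the value over all genes. That interval treats genes as random draws, and these sets hold most of the same genes, so it was a yardstick of size and not a test. *Slc1a1* and the median of the members are the same value and were both counted. *Slc1a6* went from 14.1 to 12.3 and 11.6, and *Slc1a4* from 66.7 to 65.8 and 65.7. The median of the members was at 80.4 and 80.3, against 80.8 over all genes. Over the 8829 genes at 4 log2 CPM or more, a set chosen after seeing the data, all 8 percentiles that could be recomputed were lower, because low genes were left out. The median of the members, which is *Slc1a1*, was then at 72.2, *Slc1a4* at 51.6, *Slc1a2* at 93.9 and *Slc1a3* at 98.9, and *Slc1a6* was not in that set. Settings that need values per dam (pseudocount, filter, normalization, leaving out each dam) or transcript lengths were not run. No paired analysis was possible because no result comes from a test between dams, and the replicate numbers of the labels are tied to no shared litter, batch or day in the sources used here. The methods of the study state only a nominal depth per sample, so no interval is given for the low level of *Slc1a6*.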

Other observations

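Beside *Slc1a3*, the solute carriers with the most reads came from several families, named after their values were seen. *Slc22a17*, a receptor-like carrier, had 9.55 log2 CPM. *Slc25a4*, the mitochondrial exchanger of ADP and ATP, had 9.02, and *Slc12a5*, the neuronal chloride exporter KCC2, had 8.64 log2 CPM.

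The vesicular glutamate transporters, which load the transmitter that the Slc1 proteins clear, drew unequal numbers of reads. *Slc17a6*, the main form of the hypothalamus and thalamus, had 8.09 log2 CPM, *Slc17a7*, the main form of the cortex, 7.17, and *Slc17a8* 2.64 log2 CPM. The level of *Slc17a6* was close to the 8.08 of *Slc1a2*.

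The gene model behind the *Slc1a2* reads is short. In Rnor_6.0 coordinates of the table it spans 24.9 kb, whereas the 2 RefSeq starts of the gene on GRCr8 lie 47.8 kb apart. The lengths come from different builds and are set side by side only. How many *Slc1a2* reads fell outside the model was not tested.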
